A study of Mus musculus with 12 samples.

Results

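Cell cycle and proliferation genes were examined in mouse duodenum before and after weaning. The members were 44 genes listed by symbol, from the loading of the replicative helicase to cytokinesis. A gene was read from the array feature that carries its symbol alone, and from the feature with the highest mean where there were several. By this rule 42 of the 44 members were measured, among 19938 genes tested. Ccnb1, which encodes cyclin B1, had no feature with a single symbol and was not analysed here. Cdkn1a, which encodes the CDK inhibitor p21, was listed on 1 feature together with another symbol and was skipped by the rule. The rule reads symbols, and the list was drawn up with earlier results of these data known.

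The study profiled total RNA of duodenal segments with whole-transcript arrays, 12 arrays in all. Its 4 groups were Onecut2 knockout at postnatal day 30, Onecut2 knockout at day 15, wild type at day 30 and wild type at day 15, with 3 arrays in each. All mice were of strain 129, of mixed sex and untreated, and an array held RNA pooled from 5 to 8 mice. The labelled knockout is of Onecut2, the gene of a cut homeodomain transcription factor. Neither how the allele was made nor which cells carry it is stated in the labels. Because arrays are pools, the spread between arrays is not the spread between single mice.

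Onecut2 lay between 8.09 and 8.25 on the 6 knockout arrays and between 9.50 and 9.69 on the 6 wild type arrays, in log2 expression values. Array medians lay between 7.20 and 7.25, below the Onecut2 values of the knockout arrays, and the source of that remaining signal was not tested. Array pairs correlated with r of 0.972 to 0.995. Medians and correlations were taken over all 35557 array features. The labelled tissue was checked against its markers: the mean of 12 enterocyte and duodenum genes lay between 12.32 and 12.43 on all 12 arrays. Pancreatic acinar genes were also high on each array, with a mean of 9 genes between 12.03 and 13.33. Xist ranged from 9.26 to 11.37 over these pools of mixed sex.

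In the small intestine, cells divide in the crypts and stop dividing as they move onto the villi. Before S phase the MCM helicase is loaded onto DNA, in S phase the sliding clamp Pcna and the enzymes of nucleotide supply serve replication, and in G2 and M phase cyclin B with Cdk1, the Polo and Aurora kinases, spindle motors and the anaphase-promoting complex carry the cell through division. E2F factors are known to drive the replication genes, and the MuvB complex with Mybl2 and Foxm1 is known to drive the mitotic genes through a promoter element called CHR, often beside CCAAT boxes.

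The data show a small shift in the balance of this programme with age. Of 18 genes of mitosis, 10 in knockout and 7 in wild type were higher at day 30 than at day 15. That is 55.6% and 38.9%, against 13.8% and 12.3% of all genes. Of 15 genes of replication and S phase, most did not pass the test. Pcna and Mcm6 were lower in both genotypes, 13.3% of the 15, against 17.2% and 17% of all genes called lower. Rrm2 was higher in both genotypes, and Cdc6 was higher in knockout. No member changed by more than 40.3%, the rise of Birc5 in knockout duodenum. Between genotypes of the same age, Rrm2 at day 30 was the 1 member called, and that call depended on each of the 6 arrays.

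Tested with limma (called at a Benjamini-Hochberg adjusted p under 0.05 over all genes), 13 of 42 members were higher and 2 lower at day 30 than at day 15 in knockout duodenum. Over all genes tested, 13.8% were called higher and 17.2% lower in that comparison. In wild type duodenum 8 members were higher and 2 lower, where 12.3% of all genes were called higher and 17% lower. The 8 members higher in wild type were all among the 13 higher in knockout, which is 100% of the wild type list and 61.5% of the knockout list. Over all genes these shares were 71.0% of the wild type list and 63.3% of the knockout list. The median log2 fold change of the 42 members was 0.10 in knockout and 0.06 in wild type, against 0.03 and 0.02 over all genes.

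**Figure D1:**
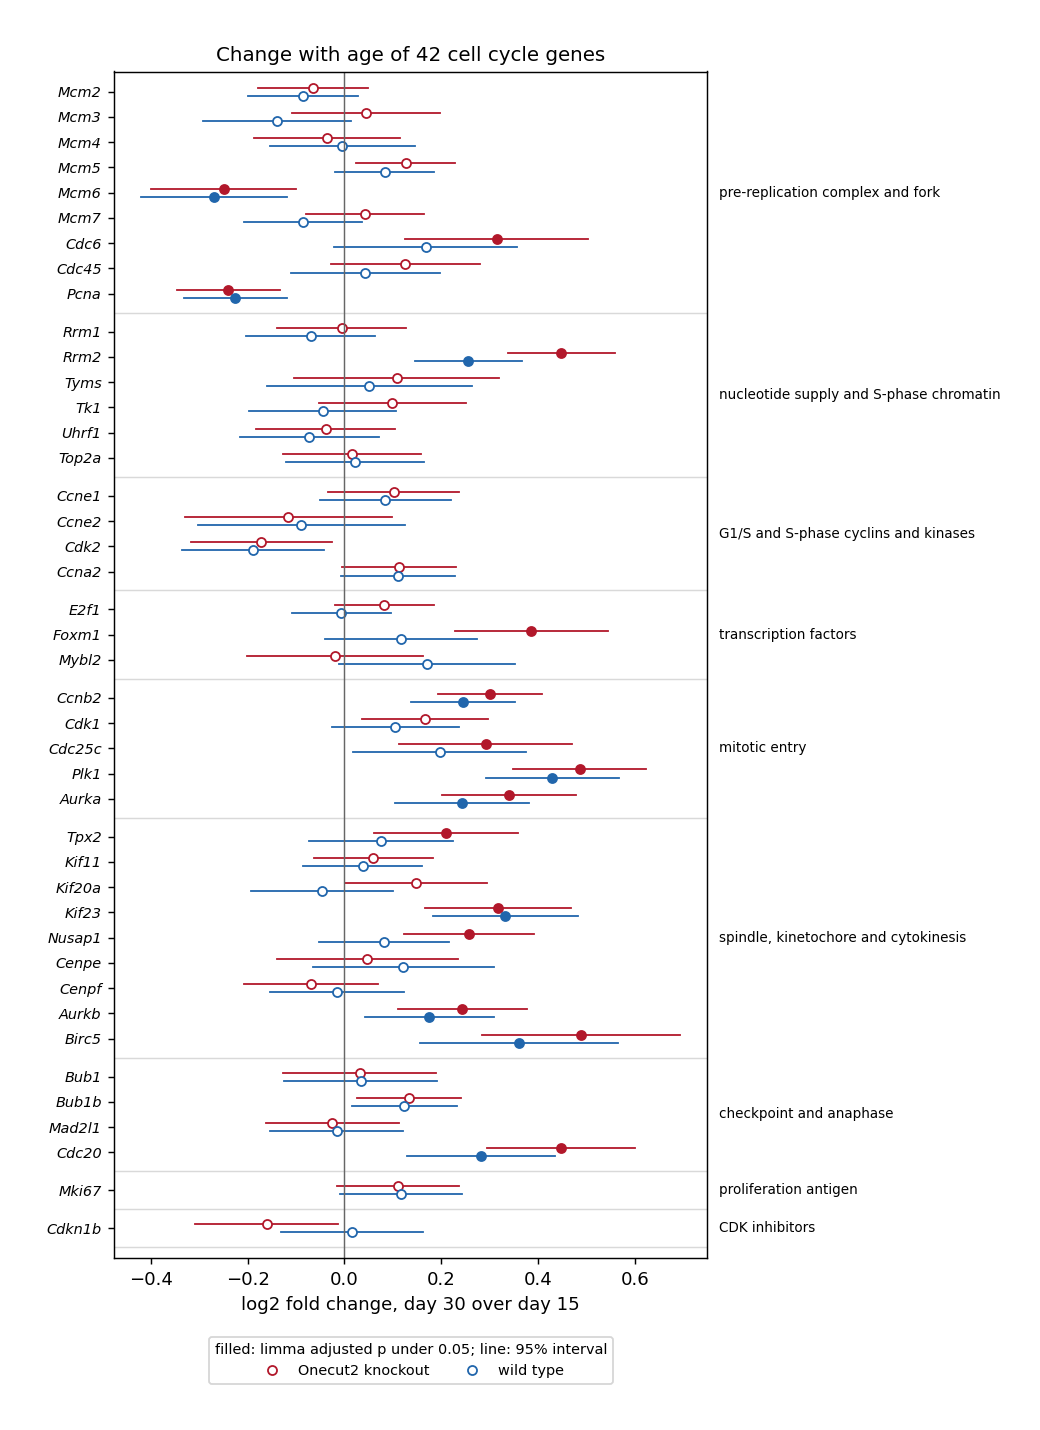
Log2 fold change at day 30 over day 15 of the 42 measured genes, by role, in Onecut2 knockout (red) and wild type (blue) duodenum; points are limma estimates, lines their 95% intervals, and filled points passed an adjusted p of 0.05. The mitotic groups in the lower part lie mostly right of 0 in both genotypes, up to 0.49 for Birc5 in knockout, and the only filled points left of 0 are Mcm6 and Pcna.

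The promoters of 6 members that moved with age are shown. Those of Plk1, Ccnb2, Cdc20 and Mcm6 carry, in plain letters, elements by which the mitotic and the replication genes are usually told apart. Those of Rrm2 and Pcna hold a CCAAT box alone. All 6 are RefSeq windows on GRCm38.p6, from 250 bases before the start of transcription to 50 after it. Each is written 5′ to 3′ on the strand of the gene. Capitals mark the CCAAT box (CCAAT or its reverse complement), the CHR letters TTTGAA or their reverse complement, and the E2F letters TTTCCCGC, TTTCGCGC, TTTGCCGC and TTTGGCGC or their reverse complements.
Plk1 (chr7:122159185-122159484, plus strand): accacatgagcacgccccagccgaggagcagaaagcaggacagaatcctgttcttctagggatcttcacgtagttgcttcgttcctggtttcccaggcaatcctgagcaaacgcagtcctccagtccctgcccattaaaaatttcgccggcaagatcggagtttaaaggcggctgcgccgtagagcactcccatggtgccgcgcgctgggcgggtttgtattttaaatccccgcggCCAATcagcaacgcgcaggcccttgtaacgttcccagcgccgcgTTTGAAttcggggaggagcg
Ccnb2 (chr9:70421505-70421804, minus strand): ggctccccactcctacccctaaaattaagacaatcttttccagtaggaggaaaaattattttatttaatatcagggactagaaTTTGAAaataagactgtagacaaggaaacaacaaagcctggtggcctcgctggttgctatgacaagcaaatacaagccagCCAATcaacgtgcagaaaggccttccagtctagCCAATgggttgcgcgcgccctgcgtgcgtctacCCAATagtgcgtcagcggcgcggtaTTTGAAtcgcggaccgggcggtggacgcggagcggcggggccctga
Cdc20 (chr4:118437294-118437593, minus strand): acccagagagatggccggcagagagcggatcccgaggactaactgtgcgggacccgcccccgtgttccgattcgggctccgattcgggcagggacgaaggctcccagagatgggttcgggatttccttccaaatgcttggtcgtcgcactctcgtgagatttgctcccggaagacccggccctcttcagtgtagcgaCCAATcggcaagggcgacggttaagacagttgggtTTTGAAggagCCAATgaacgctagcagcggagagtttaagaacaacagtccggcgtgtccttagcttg
Rrm2 (chr12:24708004-24708303, plus strand): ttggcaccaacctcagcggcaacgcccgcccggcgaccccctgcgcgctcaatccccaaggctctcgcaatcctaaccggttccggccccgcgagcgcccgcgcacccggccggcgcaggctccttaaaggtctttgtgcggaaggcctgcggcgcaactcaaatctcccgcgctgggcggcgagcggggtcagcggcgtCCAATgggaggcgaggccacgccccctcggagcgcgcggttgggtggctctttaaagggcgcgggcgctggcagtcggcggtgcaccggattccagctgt
Mcm6 (chr1:128359656-128359955, minus strand): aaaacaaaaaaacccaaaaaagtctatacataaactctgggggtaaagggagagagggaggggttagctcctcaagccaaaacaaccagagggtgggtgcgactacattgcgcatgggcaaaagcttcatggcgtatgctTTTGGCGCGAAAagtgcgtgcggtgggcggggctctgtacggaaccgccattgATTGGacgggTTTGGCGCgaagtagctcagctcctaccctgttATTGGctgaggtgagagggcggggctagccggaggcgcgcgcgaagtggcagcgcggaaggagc
Pcna (chr2:132253131-132253430, minus strand): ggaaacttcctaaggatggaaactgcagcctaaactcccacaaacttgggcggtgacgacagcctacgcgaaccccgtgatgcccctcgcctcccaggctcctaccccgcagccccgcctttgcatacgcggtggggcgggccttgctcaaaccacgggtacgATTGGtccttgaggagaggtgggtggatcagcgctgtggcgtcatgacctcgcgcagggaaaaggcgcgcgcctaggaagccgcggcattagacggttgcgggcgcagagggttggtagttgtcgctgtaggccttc

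The mitotic kinase gene Plk1 holds a CCAAT box at position -14 and CHR letters at 31, counted from the start of transcription. Ccnb2 has CCAAT boxes at -87, -54 and -21 with CHR letters at -167 and 5, and Cdc20 has CCAAT boxes at -53 and -8 with CHR letters at -18. Mcm6 has CCAAT boxes at -57 and -14 and E2F letters at -110, -106 and -47, the first 2 of which overlap. Pcna and Rrm2 hold a CCAAT box alone, at -87 and -50. These are matches of letters within the window and say nothing of binding.

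RefSeq windows were at hand for 34 of the 42 measured members. Among 14 such members of mitosis, 9 (64.3%) held both a CCAAT box and CHR letters, against 3 of 14 members of replication and S phase (21.4%) and 8.97% of all 27025 genes with a window. E2F letters were in 1 of 14 members of mitosis (7.14%), 6 of 14 of replication and S phase (42.9%) and 2.6% of all genes. CCAAT boxes alone did not separate them, with 11 of 14 (78.6%) in either group and 41.1% of all genes. Among the members of mitosis, 5 of 7 that were called higher with age in knockout held both elements, and so did 4 of 7 that were not called.

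Genes of mitotic entry moved furthest as a group. Of 5 members, 4 were called higher at day 30 in knockout and 3 in wild type, with median log2 fold changes of 0.30 and 0.24. Plk1, the Polo-like kinase that promotes mitotic entry and centrosome maturation, measured 9.49, 9.47 and 9.40 in knockout at day 30, against 9.04, 8.92 and 8.94 in knockout at day 15. Its values in wild type were 9.32, 9.26 and 9.39 at day 30, against 9.01, 8.83 and 8.85 at day 15. In both genotypes every day 30 array lay above every day 15 array. Plk1 rose by 0.49 in knockout (SE 0.06, limma adjusted p = 7.1e-05) and by 0.43 in wild type (SE 0.06, limma adjusted p = 0.00019).

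Ccnb2, a B-type cyclin that partners Cdk1, had the smallest SE of the genes of mitotic entry. It measured 9.69, 9.67 and 9.72 in knockout at day 30, against 9.38, 9.40 and 9.40 at day 15, a rise of 0.30 (SE 0.05, limma adjusted p = 0.00045). Wild type arrays gave 9.60, 9.64 and 9.71 at day 30, against 9.41, 9.44 and 9.36 at day 15, a rise of 0.24 (SE 0.05, limma adjusted p = 0.0021). The ages did not overlap in either genotype.

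Aurka, the centrosomal Aurora kinase, rose by 0.34 in knockout and by 0.24 in wild type, and the wild type call ended without day 30 replicate 3. Cdc25c, the phosphatase that activates Cdk1, rose by 0.29 in knockout, a call that ended without day 15 replicate 1, and its log2 fold change in wild type was 0.20 (limma adjusted p = 0.094). Cdk1 itself, the kinase of mitotic entry, had log2 fold changes of 0.17 in knockout (limma adjusted p = 0.051) and 0.11 in wild type (limma adjusted p = 0.22), neither called. It passed in knockout with an intensity trend, with array weights, with each array centred on its median, without dim genes, and without knockout replicate 3 of either age. Its day 30 arrays nevertheless all lay above its day 15 arrays in each genotype.

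Of 9 spindle, kinetochore and cytokinesis genes, 5 were called higher with age in knockout and 3 in wild type. Birc5 encodes survivin, a subunit of the chromosomal passenger complex. It measured 8.25, 8.14 and 8.01 in knockout at day 30, against 7.64, 7.44 and 7.85 at day 15, and 7.99, 8.09 and 8.11 in wild type at day 30, against 7.78, 7.63 and 7.70 at day 15. The ages were apart in both genotypes, although the knockout arrays of day 15 spread over 0.21 (SD, n = 3). Birc5 rose by 0.49 in knockout (SE 0.09, limma adjusted p = 0.0015) and by 0.36 in wild type (SE 0.09, limma adjusted p = 0.011).

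Kif23, a kinesin of the central spindle needed for cytokinesis, measured 9.53, 9.43 and 9.30 in knockout at day 30, against 9.14, 9.06 and 9.10 at day 15. The wild type arrays held 9.39, 9.49 and 9.62 at day 30, against 9.18, 9.16 and 9.16 at day 15. The ages did not overlap, and Kif23 rose by 0.32 in knockout (SE 0.07, limma adjusted p = 0.0034) and by 0.33 in wild type (SE 0.07, limma adjusted p = 0.0026).

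Aurkb, the kinase of the chromosomal passenger complex, rose by 0.24 in knockout and by 0.18 in wild type. Its wild type adjusted p of 0.048 (limma) passed narrowly, and the call ended on leaving out any of 5 of the 6 wild type arrays. Nusap1, a microtubule-bundling spindle protein, rose by 0.26 in knockout and had a log2 fold change of 0.08 in wild type. Tpx2, which activates Aurka on the spindle, rose by 0.21 in knockout, a call lost without any of 5 of the 6 knockout arrays, and was at 0.07 in wild type. The kinesins Kif11 and Kif20a and the kinetochore proteins Cenpe and Cenpf were not called, with log2 fold changes between -0.07 and 0.15.

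In the group of checkpoint and anaphase genes, Cdc20 alone was called of 4 members, in each genotype. Cdc20 activates the anaphase-promoting complex. It measured 8.67, 8.58 and 8.46 in knockout at day 30, against 8.18, 8.05 and 8.14 at day 15, and 8.44, 8.36 and 8.53 in wild type at day 30, against 8.24, 8.12 and 8.12 at day 15. No day 15 array reached any day 30 array, and Cdc20 rose by 0.45 in knockout (SE 0.07, limma adjusted p = 0.00032) and by 0.28 in wild type (SE 0.07, limma adjusted p = 0.0082). The spindle checkpoint genes Bub1, Bub1b and Mad2l1 had log2 fold changes between -0.03 and 0.13 and were not called. Bub1b passed in both genotypes without dim genes and with each array centred on its median, and in wild type with array weights.

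**Figure D2:**
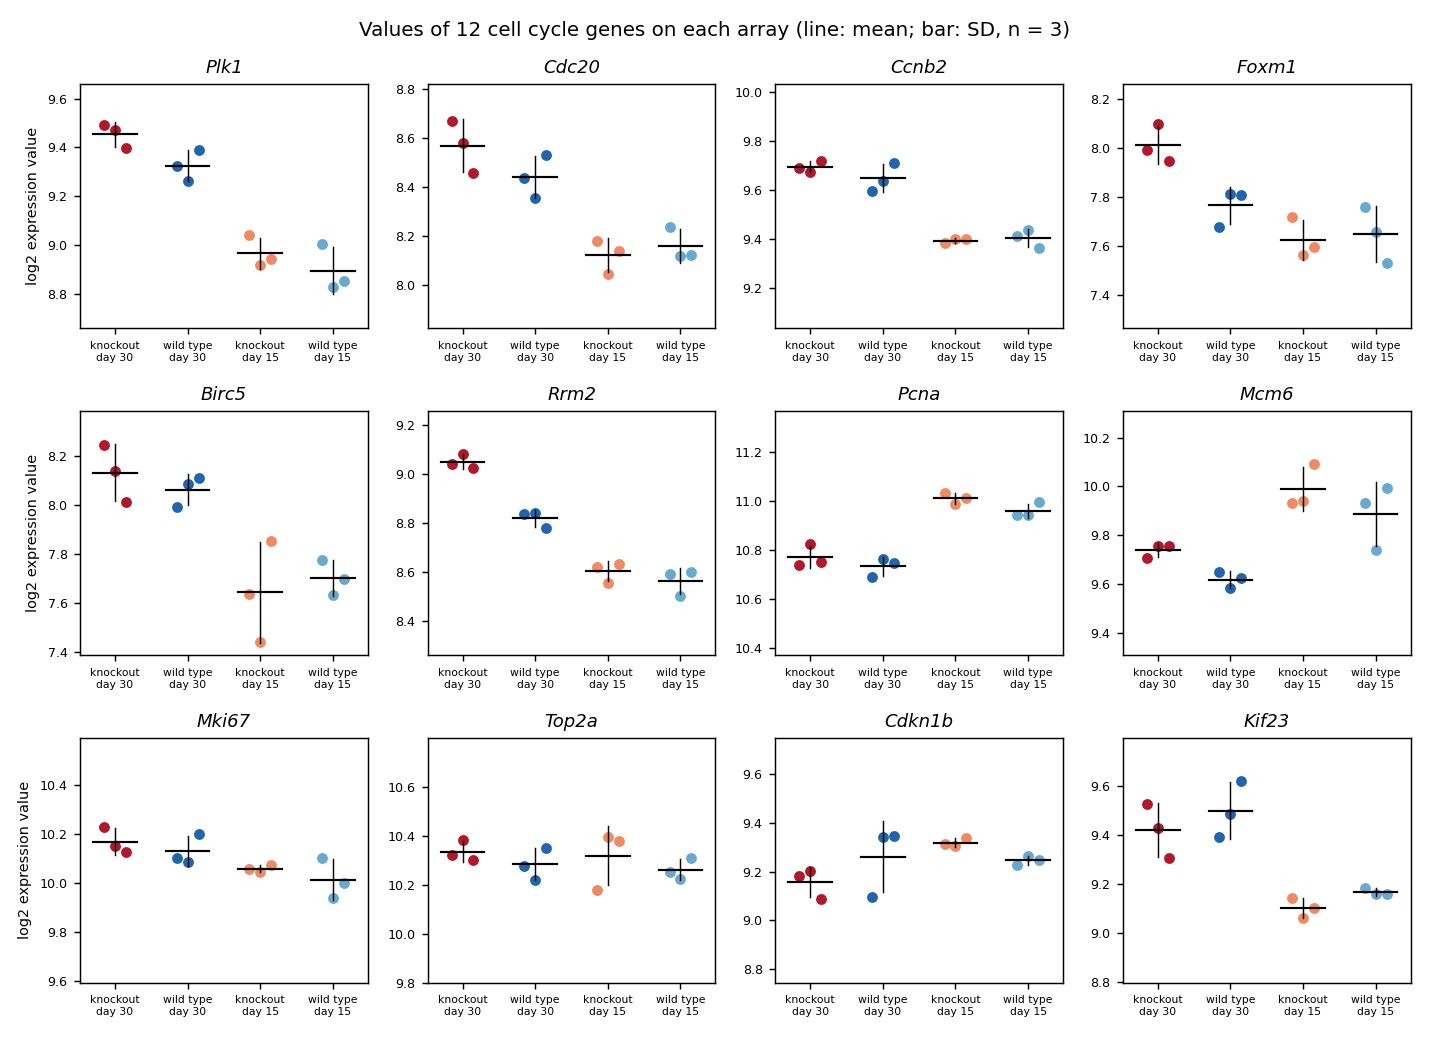
Log2 expression values of 12 genes on each of the 12 arrays, as points, with the group mean (horizontal line) and SD (vertical bar, n = 3); each panel has its own range. Plk1, Cdc20, Ccnb2, Birc5, Rrm2 and Kif23 lie higher at day 30 in both genotypes with no overlap of ages, Pcna and Mcm6 lie lower at day 30, and Top2a overlaps in all groups.

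Genes of replication and S phase did not move one way. Of 9 members of the pre-replication complex and fork, 1 was higher and 2 lower at day 30 in knockout, and 0 higher and 2 lower in wild type. In knockout that is 11.1% higher and 22.2% lower, near the 13.8% and 17.2% of all genes. Pcna, the sliding clamp of DNA polymerase, measured 10.74, 10.82 and 10.75 in knockout at day 30, against 11.03, 10.99 and 11.01 at day 15. In wild type it measured 10.69, 10.76 and 10.75 at day 30, against 10.94, 10.94 and 10.99 at day 15. Every day 30 array lay below every day 15 array of its genotype, and Pcna fell by 0.24 in knockout (SE 0.05, limma adjusted p = 0.0023) and by 0.23 in wild type (SE 0.05, limma adjusted p = 0.0035). A further Pcna feature had nearly the same mean, 10.86 against 10.87, and the same changes, so the pair cannot be told apart as measurements.

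Mcm6, a subunit of the replicative helicase, measured 9.71, 9.76 and 9.76 in knockout at day 30, against 9.93, 9.94 and 10.09 at day 15. Wild type arrays held 9.65, 9.58 and 9.62 at day 30, against 9.93, 9.74 and 9.99 at day 15. Mcm6 fell by 0.25 in knockout (SE 0.07, limma adjusted p = 0.015) and by 0.27 in wild type (SE 0.07, limma adjusted p = 0.010). Its call ended in knockout without day 15 replicate 3 (log2 fold change -0.20, limma adjusted p = 0.074) or day 30 replicate 1 (-0.23, limma adjusted p = 0.052), and in wild type without day 15 replicate 3 (-0.22, limma adjusted p = 0.054).

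The other subunits Mcm2, Mcm3, Mcm4, Mcm5 and Mcm7 were not called, with log2 fold changes from -0.07 to 0.13 in knockout and from -0.14 to 0.08 in wild type. Mcm5 passed as higher in both genotypes with each array centred on its median, and in knockout with an intensity trend and without dim genes. Cdc6, which loads the helicase, went the other way from Mcm6 in knockout, where it rose by 0.31 (SE 0.09, limma adjusted p = 0.015), and was at 0.17 in wild type, not called. The Cdc6 call ended without knockout day 15 replicate 3 or day 30 replicate 1. Cdc45, a cofactor of the active helicase, was at 0.13 in knockout and 0.04 in wild type, neither called.

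Rrm2, the small subunit of ribonucleotide reductase, was the member of replication and S phase with the smallest p. It measured 9.04, 9.08 and 9.02 in knockout at day 30, against 8.62, 8.56 and 8.63 at day 15, and rose by 0.45 (SE 0.05, limma adjusted p = 2.3e-05). In wild type it measured 8.84, 8.84 and 8.78 at day 30, against 8.59, 8.50 and 8.60 at day 15, and rose by 0.26 (SE 0.05, limma adjusted p = 0.0019). The partner subunit Rrm1 was not called, at -0.01 in knockout and -0.07 in wild type.

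Of the remaining genes of nucleotide supply and S-phase chromatin, none was called by limma with age: the thymidylate synthase Tyms, the thymidine kinase Tk1, the DNA methylation maintenance factor Uhrf1 and the topoisomerase Top2a lay between -0.07 and 0.11. Top2a measured 10.32, 10.38 and 10.30 in knockout at day 30, against 10.18, 10.40 and 10.38 at day 15, and 10.28, 10.22 and 10.35 in wild type at day 30, against 10.25, 10.22 and 10.31 at day 15. These values overlapped in all groups, with a 95% interval of the age difference from -0.13 to 0.16 in knockout.

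The G1/S and S-phase cyclins Ccne1, Ccne2 and Ccna2 were not called, with log2 fold changes between -0.12 and 0.11. Cdk2, the kinase they partner, was at -0.17 in knockout (limma adjusted p = 0.072) and -0.19 in wild type (limma adjusted p = 0.051), neither called. It passed in both genotypes when dim genes were left out. In wild type it also passed with an intensity trend, with array weights, with only the 6 arrays compared and without day 15 replicate 1. In knockout it also passed without replicate 2 of either age. Of 3 transcription factors, Foxm1 was called in knockout. Foxm1, which drives G2 and M phase genes, measured 7.99, 8.10 and 7.95 in knockout at day 30, against 7.72, 7.56 and 7.59 at day 15, and rose by 0.39 (SE 0.07, limma adjusted p = 0.0012). Wild type arrays held 7.68, 7.81 and 7.81 at day 30, against 7.76, 7.66 and 7.53 at day 15, and overlapped (0.12, limma adjusted p = 0.26). E2f1 and Mybl2 lay between -0.02 and 0.17 and were not called.

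Mki67, the antigen most used to stain dividing cells, was not called in either genotype as tested, but passed in wild type with array weights and with each array centred on its median. It measured 10.23, 10.15 and 10.12 in knockout at day 30, against 10.05, 10.04 and 10.07 at day 15, and 10.10, 10.09 and 10.20 in wild type at day 30, against 10.10, 9.94 and 9.999 at day 15. Its age differences were 0.11 (95% interval -0.02 to 0.24) in knockout and 0.12 (-0.01 to 0.24) in wild type. Cdkn1b, which encodes the CDK inhibitor p27, measured 9.18, 9.20 and 9.09 in knockout at day 30, against 9.31, 9.31 and 9.34 at day 15, apart but not called (-0.16, limma adjusted p = 0.092). In wild type it measured 9.10, 9.34 and 9.35 at day 30, against 9.23, 9.26 and 9.25 at day 15, and the ages overlapped. A further Cdkn1b feature, with a mean of 7.20 against 9.25, had age differences of -0.05 in knockout and 0.12 in wild type.

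Set side by side, 10 of 18 members of mitosis were higher and 0 lower with age in knockout, with a median log2 fold change of 0.23, and 7 were higher and 0 lower in wild type, with a median of 0.12. Of 15 members of replication and S phase, 2 were higher and 2 lower in knockout, with a median of 0.04, and 1 was higher and 2 lower in wild type, with a median of -0.04. The mean of the mitotic members minus that of the replication members on the same array was -0.40, -0.41 and -0.43 in knockout at day 30, against -0.58 on each knockout array at day 15. In wild type it was -0.41, -0.44 and -0.34 at day 30, against -0.57, -0.57 and -0.59 at day 15. This log2 difference was higher on all 6 arrays of day 30 than on any array of day 15, and a value below 0 reflects the brightness of the features, not the relative abundance of the transcripts.

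**Figure D3:**
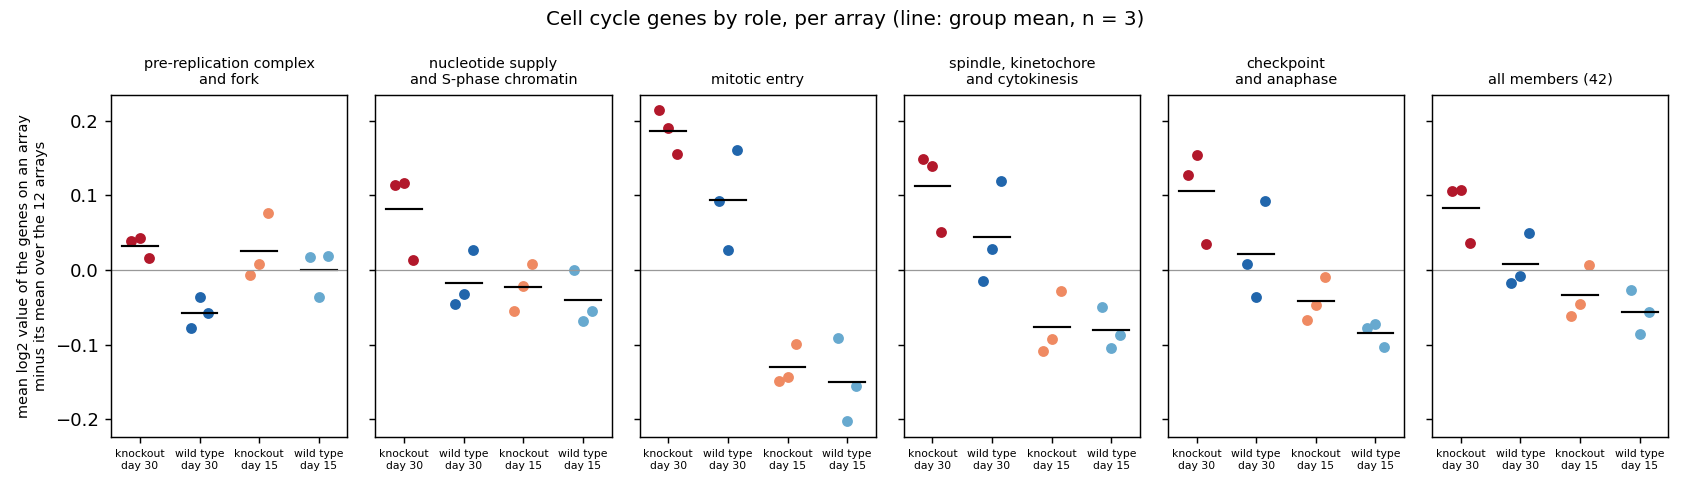
Mean log2 value of the genes of each role on each array, minus its mean over the 12 arrays, as points, with the group mean as a line (n = 3). Mitotic entry separates the ages in both genotypes, and the pre-replication complex and fork overlaps between ages in knockout.

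Other cell populations of the segment moved with age at the same time. In limma, 9 of 10 T cell genes were higher at day 30 in each genotype. The mean of that list lay between 8.16 and 8.33 in knockout at day 30, against 6.77 to 6.91 at day 15, and between 8.15 and 8.24 in wild type at day 30, against 6.57 to 6.64 at day 15. B and plasma cell genes were higher for 8 of 8 in knockout and 7 of 8 in wild type. Paneth cell genes were higher for 5 of 6 and 6 of 6.

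Smooth muscle genes fell with age, 11 of 12 in knockout and 12 of 12 in wild type. The mean of that list was 9.71 to 9.76 in knockout at day 30, against 10.09 to 10.27 at day 15, and 9.69 to 9.83 in wild type at day 30, against 10.37 to 10.46 at day 15. Of 11 crypt stem cell genes, 1 was higher and 4 lower in knockout, and 2 were higher and 3 lower in wild type. Lgr5, the receptor that marks crypt base stem cells, fell by 0.59 in knockout and by 0.67 in wild type. Dividing lymphocytes also express the members, and the means of the T and B cell lists separate the ages completely, so changes in lymphocytes and changes in the crypts cannot be told apart here.

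When the mean of the smooth muscle list was added as a covariate, limma called 0 members in either genotype with age, and 6 members in knockout and 3 in wild type had an unadjusted p under 0.05. That covariate is nearly the same variable as age, and the median SE of the members was 0.21 in knockout and 0.28 in wild type with it, against 0.07 without. Members' medians were then 0.18 in knockout and 0.16 in wild type, and Plk1 was at 0.46 (SE 0.21) and 0.40 (SE 0.29). Pcna and Mcm6 were at -0.06 and -0.03 in knockout and at 0.02 and 0.04 in wild type, so their lower level at day 30 was not seen with the covariate. Fewer dividing cells and less RNA per cell cannot be told apart in RNA of a whole segment.

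At day 15 no difference between genotypes was detected among the members. Limma called 0 members higher and 0 lower, where 1.81% of all genes were called higher and 2.03% lower, and 0 members had an unadjusted p under 0.05, against 15.2% of all genes. The log2 fold change of knockout over wild type ranged from -0.08 for Mcm7 to 0.15 for Ccne2, with a median of 0.03 against -0.01 over all genes. The 95% interval of all 42 members lay within 0.5 on either side of 0. These intervals bound the difference, and do not show that the genotypes are alike.

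At day 30 the members leaned upward in knockout, by little. The log2 fold change of knockout over wild type was above 0 for 38 of 42 members (90.5%), against 48.2% of all genes. Its median was 0.07 over the members against -0.0038 over all genes. Limma called 1 member higher and 0 lower, where 1.04% of all genes were called higher and 0.943% lower, and 6 members (14.3%) had an unadjusted p under 0.05, close to the 11.2% of all genes. The called member was Rrm2, with 9.04, 9.08 and 9.02 in knockout and 8.84, 8.84 and 8.78 in wild type, which is 0.23 higher in knockout on the log2 scale (SE 0.05, limma adjusted p = 0.037). All knockout arrays lay above all wild type arrays, yet the call ended on leaving out any of the 6 arrays of day 30 (limma adjusted p from 0.059 to 0.16).

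Foxm1 had 7.99, 8.10 and 7.95 in knockout and 7.68, 7.81 and 7.81 in wild type at day 30, apart but not called (0.25, SE 0.07, limma adjusted p = 0.13). Nusap1 had 8.11, 8.20 and 8.02 in knockout and 7.81, 7.98 and 7.88 in wild type at that age, also apart and not called (0.22, SE 0.06, limma adjusted p = 0.11). In all, the knockout arrays of day 30 lay above the wild type arrays for 10 members (23.8%) and below for 0, against 7.95% and 7.49% of all genes, and these genes are not independent of each other. The lowest member was Mybl2, a MuvB partner, at -0.18 (limma adjusted p = 0.44). Plk1, Cdc20 and Mki67 were at 0.13, 0.13 and 0.04, none called.

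**Figure D4:**
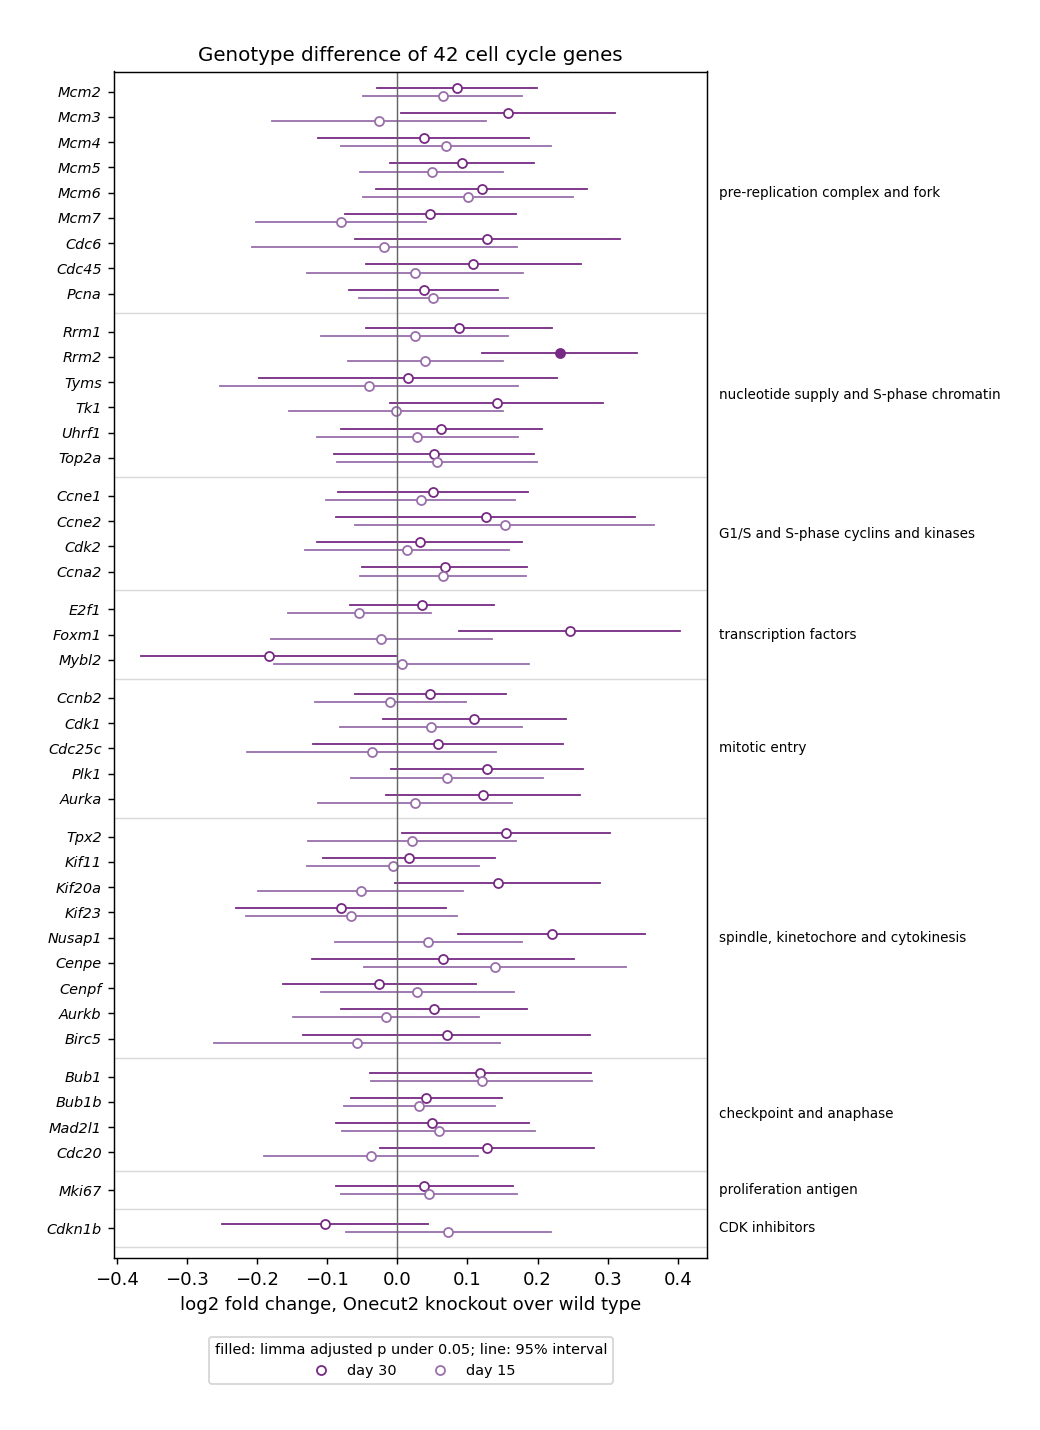
Log2 fold change of Onecut2 knockout over wild type for the 42 genes at day 30 (dark) and day 15 (light), by role; points are limma estimates, lines their 95% intervals. Most day 30 points lie right of 0, up to 0.25 for Foxm1, and Rrm2 at day 30 is the only filled point.

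Cell type markers differed between genotypes as well. Paneth cell genes were higher in knockout for 6 of 6 at day 15 and 4 of 6 at day 30. Of 11 crypt stem cell genes, 2, Lgr5 and Rnf43, were called lower in knockout at each age, and 0 higher. That is 18.2% lower, against 2.03% of all genes at day 15 and 0.943% at day 30. The log2 fold change was above 0 for 2 of the 11 at each age, with Axin2 the highest at 0.18 and 0.10. Lgr5 measured 7.40, 7.46 and 7.29 in knockout at day 30, against 7.75, 7.73 and 7.94 in wild type. At day 15 it measured 8.14, 7.84 and 7.93 in knockout, against 8.36, 8.52 and 8.54 in wild type. Lgr5 was thus lower in knockout on every array while Mki67 was not called, and the part of these cells in the members' values was not tested. At day 30 limma called 0 of the 10 T cell, 8 B and plasma cell and 12 smooth muscle genes between genotypes, and 0 had an unadjusted p under 0.05. At that age 2 of 8 stomach and Brunner gland genes were lower in knockout and 2 of 12 enterocyte and duodenum genes higher, and 7 of the 12 had an unadjusted p under 0.05. At day 15 smooth muscle genes were lower in knockout for 2 of 12, with 10 of the 12 at an unadjusted p under 0.05 and 11 with all knockout arrays below all wild type arrays. Also at day 15, 2 of 10 T cell genes and 1 of 8 B and plasma cell genes were higher in knockout, and 3 of 8 stomach and Brunner gland genes lower. With the smooth muscle mean in the fit, the members' median difference at day 15 was 0.064 and limma called 0 of them, with 1 at an unadjusted p under 0.05. The part of the other populations in the members' values was not tested.

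The difference between the 2 age changes, knockout minus wild type, was tested itself. Limma called 0 members higher and 0 lower, where 0.231% of all genes were called higher and 0.226% lower, and 2 members (4.76%) had an unadjusted p under 0.05, against 8.85% of all genes. Those were Foxm1 at 0.27 (SE 0.10, limma adjusted p = 0.43) and Rrm2 at 0.19 (SE 0.07, limma adjusted p = 0.42). The 5 members called with age in knockout alone, Cdc6, Foxm1, Cdc25c, Tpx2 and Nusap1, are therefore not shown to differ between genotypes. The median difference was 0.05 over the members and 0.01 over all genes, and all 42 intervals lay within 0.5 on either side of 0. They reached -0.45 for Mybl2 and 0.49 for Foxm1, about the size of the largest age change of a member (Birc5, 0.49 in knockout). The intervals therefore do not show that the age changes of the genotypes are alike.

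Further genes of the same pathways were read from lists that hold none of the members. Of 60 further genes of mitosis and cytokinesis, 20 were higher and 1 lower with age in knockout. In wild type 5 were higher and 2 lower. The knockout shares are 33.3% and 1.67%, against 13.8% and 17.2% of all genes. In wild type they are 8.33% and 3.33%, against 12.3% and 17%, so the higher share there was under that of all genes. The 5 higher in wild type were all among the 20 higher in knockout. Nek2, a centrosomal kinase, rose by 0.46 in knockout and by 0.38 in wild type. Hmmr, a spindle assembly protein, Ube2c, the ubiquitin-conjugating enzyme of the anaphase-promoting complex, and Cenpa, the centromeric histone, rose by 0.36, 0.35 and 0.30 in knockout. Cdca8, a chromosomal passenger subunit, and Cdca3 rose in both genotypes, by 0.33 and 0.31 in knockout and by 0.25 and 0.35 in wild type.

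The count of 20 fell to 12 without knockout day 15 replicate 1, day 15 replicate 2 or day 30 replicate 1, and to 13 without day 30 replicate 2. The count of 5 fell to 2 without wild type day 15 replicate 2 or day 30 replicate 3 and to 3 without day 15 replicate 3. With each array centred on its median, which shifts the median of all genes to 0.08 in both genotypes, it was 26 in knockout and 14 in wild type.

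Of 43 further genes of DNA replication, 3 were higher and 6 lower in knockout, and 4 higher and 9 lower in wild type. That is 6.98% and 14.0% in knockout, against 13.8% and 17.2% of all genes, and 9.30% and 20.9% in wild type, against 12.3% and 17%. With each array centred on its median, 4 were higher and 5 lower in knockout, and 7 higher and 4 lower in wild type, which turns the balance in wild type. Orc1, a subunit of the origin recognition complex, Pold2, a subunit of polymerase delta, and Gmnn, the inhibitor of relicensing, rose by 0.32, 0.32 and 0.35 in knockout. Pola1, the catalytic subunit of polymerase alpha, fell by 0.25 in knockout and by 0.36 in wild type. Orc3 fell by 0.33 in each genotype, and Rfc1, of the clamp loader, by 0.20 in knockout and by 0.14 in wild type. These counts moved with single arrays: leaving out 1 array at a time, 3 to 8 genes were lower in knockout (3 without day 30 replicate 3), and 2 to 7 were lower in wild type (2 without day 30 replicate 2, 3 without day 15 replicate 2 or 3, 4 without day 30 replicate 1). The count of 4 higher in wild type was 1 without day 15 replicate 1 and 2 without day 30 replicate 3.

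Some regulators on the list of G1 cyclins, RB and E2F, which also holds Wee1, changed more with age than any member did. Of the 29 genes on it, 5 were higher and 7 lower with age in knockout. In wild type 6 were higher and 7 lower. The knockout shares are 17.2% and 24.1%, against 13.8% and 17.2% of all genes. In wild type they are 20.7% and 24.1%, against 12.3% and 17%. The 5 higher in knockout became 3 without knockout day 15 replicate 2 or day 30 replicate 2. Mycn, a MYC family factor, measured 6.99, 6.88 and 7.22 in knockout at day 30, against 8.09, 8.07 and 8.13 at day 15, and fell by 1.07 in knockout and by 0.84 in wild type. In knockout, Ccnd2, which encodes cyclin D2, fell by 0.69, Cdk6, a kinase of the D cyclins, by 0.53, Wee1, the inhibitory kinase of Cdk1, by 0.53, and E2f8, a repressive E2F family member, by 0.63. In wild type Ccnd2 fell by 0.51, Cdk6 by 0.77, Wee1 by 0.70 and E2f8 by 0.50. Rb1, the retinoblastoma protein, rose by 0.56 in knockout and by 0.54 in wild type.

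Between genotypes, Ccnd1, cyclin D1, was the 1 gene of that list called at day 30. It measured 10.17, 10.09 and 10.09 in knockout, against 9.76, 9.75 and 9.71 in wild type, 0.37 higher in knockout on the log2 scale (SE 0.06, limma adjusted p = 0.0033). At day 15 Cdk6 (-0.32) and Wee1 (-0.23) were lower in knockout, and Ccnd1 was at 0.21, not called (limma adjusted p = 0.061). On leaving out 1 array of day 15 at a time, limma called 0 or 1 genes of the list lower at that age, with 4 to 6 at an unadjusted p under 0.05. The list of mitosis and cytokinesis had 0 genes called between genotypes at either age in limma. At an unadjusted p under 0.05 it had 13 genes at day 30 and 2 at day 15, against 11.2% and 15.2% of all genes. At day 30 the log2 fold change was above 0 for 56 of the 60 (93.3%), against 48.2% of all genes.

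Of 14 CDK inhibitors and p53 targets, 2 were higher and 2 lower in knockout and 2 higher and 3 lower in wild type. In knockout that is 14.3% each way, near the 13.8% and 17.2% of all genes. In wild type it is 14.3% and 21.4%, near the 12.3% and 17% of all genes. Cdkn1c, which encodes the CDK inhibitor p57, measured 8.49, 8.59 and 8.71 in knockout at day 30, against 10.39, 10.36 and 10.39 at day 15. Wild type arrays held 8.53, 8.76 and 8.61 at day 30, against 10.26, 10.50 and 10.43 at day 15. Cdkn1c fell by 1.78 in knockout (SE 0.08, limma adjusted p = 7.3e-09) and by 1.76 in wild type (SE 0.08), more than any member changed. Cdkn2b, the CDK4 and CDK6 inhibitor p15, rose by 0.27 in knockout and by 0.50 in wild type. The stress-responsive sestrins moved in opposite directions: Sesn2 fell by 0.80 in knockout and by 0.47 in wild type, and Sesn1 rose by 0.48 in knockout and by 0.63 in wild type. Between genotypes at day 15, limma called 1 of the 14 higher and 1 lower in knockout. The log2 fold changes ranged from -0.40 for Ccng1 to 0.35 for Cdkn2b. The lower count was 0 without replicate 3 of either genotype at day 15, and both counts were 0 with the smooth muscle covariate. At day 30 limma called 0 of the 14.

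Of 18 genes of the replication checkpoint and repair, 2 were higher and 1 lower in knockout, and 1 higher and 3 lower in wild type. The knockout shares are 11.1% and 5.56%, against 13.8% and 17.2% of all genes. In wild type they are 5.56% and 16.7%, against 12.3% and 17%. The higher counts moved with single arrays, to 1 in knockout without replicate 1 or 2 of either age and to 0 in wild type without day 15 replicate 2 or day 30 replicate 1. Chek1, the kinase that answers stalled forks, fell by 0.30 in knockout and by 0.39 in wild type. Brip1, a helicase of fork repair, rose by 0.38 in knockout and by 0.33 in wild type.

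**Figure D5:**
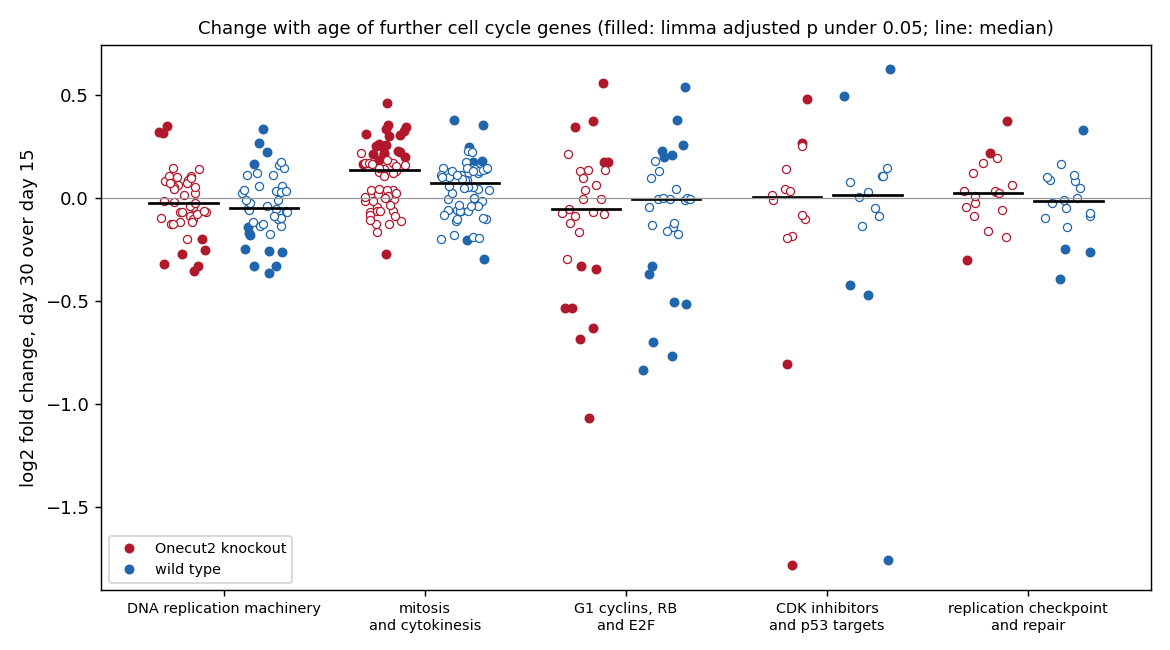
Log2 fold change at day 30 over day 15 of further cell cycle genes in 5 lists, in Onecut2 knockout (red, left in each list) and wild type (blue, right); filled points passed an adjusted p of 0.05 in limma and the line is the list's median. The lowest point in each genotype is Cdkn1c, at -1.78 in knockout and -1.76 in wild type, and the filled points of mitosis and cytokinesis lie mostly above 0.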

How the data were processed

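The deposited table holds log2 values, 1 per array feature. RMA, run in Affymetrix Expression Console 1.1 per the submitters' processing notes, gives such values after background correction, quantile normalization and a summary over probes. Quantile normalization removes a change shared by most genes, and the log base was taken from RMA, since the table does not state it. The number of arrays limits the precision.

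Of 35557 features, 21789 carried 1 gene symbol in the platform annotation, 1621 several and 12147 none. Features with 1 symbol gave 19938 genes, 999 of them with more than 1 feature, and no filter on dim genes was applied. Among the members, Pcna, Tk1, Top2a and Cdkn1b had a further feature. For Tk1 the log2 fold change of knockout over wild type on it was -0.13 at day 15 and 0.02 at day 30. The feature used gave -0.0021 and 0.14. All 42 measured members matched RefSeq by Entrez identifier with an unchanged symbol, and 5 further list symbols were matched through synonyms.

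Limma version 3.58.1 in R version 4.3.3 fitted 4 group means to all 12 arrays (8 residual degrees of freedom) with eBayes. P-values were adjusted by Benjamini-Hochberg over all genes and called at 0.05. Errors are moderated standard errors (SE) or SDs over 3 arrays. The code was tested on simulated arrays. Arrays of the same replicate number did not deviate together (correlations of deviations from the group mean from -0.25 to 0.36, and 5 of 12 arrays correlated best with their own number), so the numbers were not taken to pair the arrays.

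The members and lists were chosen with earlier results of these data known. All members could be named, with values per array for Mki67, Pcna, Top2a, Cdkn1b and up to 6 called members with the smallest p in each direction, and likewise up to 6 called genes of a wider list. A gene so named in 1 comparison is given in both genotypes. Values per array of Foxm1 and Nusap1 at day 30 and of Mycn, Ccnd1 and Cdkn1c were added after they had been seen, as was the naming of Cdk6 and Wee1 at day 15. Alternatives tried were other variance moderation, a filter on dim genes, the mean of a gene's features, centring on array medians, array weights, the replicate number as a block, a smooth muscle covariate, only the 6 arrays compared, and leaving out each array in turn.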

Additional observations from a re-analysis of the deposited data

How the results depend on the processing

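The age calls of the members held under most settings and ended under the smooth muscle covariate, where limma called 0 members higher and 0 lower in either genotype (6 members in knockout and 3 in wild type with an unadjusted p under 0.05), with medians of 0.18 in knockout and 0.16 in wild type. Under that covariate the median genotype difference at day 15 was 0.064, and the wild type log2 fold changes of Pcna, 0.022, and Mcm6, 0.037, were turned in sign. Centring each array on its median raised the members' median to 0.15 in knockout and 0.12 in wild type, with the median of all genes at 0.08 in each. The members higher then numbered 19 in knockout and 14 in wild type. With only genes above the median of the gene means (9969 genes, 38 of them members), 14 members were higher and 4 lower with age in knockout. Mcm5, Cdk1 and Bub1b joined the higher, Cdc6 and Cdc25c left them, and Cdk2 and Cdkn1b joined the lower. In wild type 9 were higher and 3 lower with that filter. At day 30, 2 members were then higher in knockout against wild type, Rrm2 and Nusap1. The share of called members that were higher with age in wild type was 80% as reported and 70% with only the 6 arrays compared. No pairing is given by the labels. With the replicate block 0 members were called between genotypes at day 30 (Rrm2 0.23, limma adjusted p = 0.075), and 0 also with only the 6 arrays compared; the block left the member counts with age at 13 and 2 in knockout and at 8 and 2 in wild type. For the further genes of DNA replication the block gave 5 lower in wild type in place of 9. With the smooth muscle covariate limma called 0 genes with age among the further genes of DNA replication (4 in each genotype with an unadjusted p under 0.05) and of mitosis and cytokinesis (8 in knockout and 7 in wild type). Array weights raised the count of mitosis and cytokinesis genes higher in wild type to 10.

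Leaving out 1 array at a time, 11 to 14 members were higher and 1 to 3 lower with age in knockout (median 0.08 to 0.12), and 6 to 9 higher and 1 to 3 lower in wild type (median 0.04 to 0.08). Between genotypes at day 30, 0 to 0 members were then called higher, with 4 to 10 at an unadjusted p under 0.05. At day 15, and for the difference between the age changes, 0 members were called under all settings run. Of 255 values of single genes under alternatives, 228 kept their direction and call, 25 lost the call and 2 turned in sign. With 3 pools a group and a median SE of 0.07, the smallest called difference of a member was 0.18 on the log2 scale (Aurkb in wild type). For the results that moved, the cause was not tested.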
